A study of Mus musculus with 4 samples.

Results

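The Th2 cytokine locus on mouse chromosome 11 was followed gene by gene across 4 RNA-seq libraries of T-helper 2 (Th2) cells. The 7 genes described were listed by name: Kif3a, Il4, Il13, Rad50, Il5, Gm12214 and Irf1, in the order in which they lie on the chromosome. They are 7 of the 50600 genes listed in the deposited tables, and each name matched 1 identifier. The cells were primary Th2 cells differentiated in culture from mouse strain C57BL/6NJ. The labels give no treatment, the age is unknown and the sex was not collected. The 4 libraries, replicates 1 to 4, form 1 group and carry a single donor identifier, so the spread between them may be partly technical. The file headers name 16 hours, which the labels do not give.

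The locus holds the genes of interleukins 4, 13 and 5, the cytokines that define Th2 cells and drive antibody class switching, mucus production and eosinophil growth. Il4 and Il13 lie next to Rad50, a DNA repair gene whose introns hold the locus control region of these cytokines. Kif3a, which encodes a motor subunit that carries cargo along microtubules, and Irf1, a transcription factor induced by interferon, flank the cluster. In textbook accounts the cytokine genes are silent in naive T cells and are opened by GATA3 and STAT6 in Th2 cells.

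All values below are read pairs on the strand that the authors' counting assigned to each gene. Whether that strand is the strand of the transcripts was not tested. Genes with an exon opposite an exon of another gene made up 16.2% of all genes and held between 90.1% and 93.3% of the counts of a library. A count of 0 is therefore not read as lack of expression. The smallest library held 1688658 counts and the largest 2222583. Where a gene had no count, up to 3 counts were taken as possible. Intervals and limits cover counting error only. Of 14 T cell identity genes, all had a count in every library. Cd247, whose exons overlap Pou2f1 by 3007 bases, led them at 167 ± 8.24 TPM, before Trac at 22.4 ± 8.29 TPM (SD, n = 4). Of 7 Th2 markers, 4 had a count in every library and Il5, Il13 and Il1rl1 had none. Ptgdr2, with 1031 exon bases opposite Ccdc86, was highest at 57.3 ± 9.10 TPM. Next was Ccr4, with no gene opposite, at 10.8 ± 2.49 TPM (SD, n = 4). Over all protein-coding genes, 39.0% had a count in every library and 43.5% had none in any. Of 22 genes that mark myeloid cells, natural killer cells and further types, 16 were at 0, among them Cd8a, Lyz2 and Ncr1. A further 4 had a count in every library. Of these 4, Cd8b1, of the CD8 co-receptor, had 3, 11, 5 and 10 counts and Cd79a, of the B cell receptor, 15, 16, 20 and 9, at 3.92 ± 2.29 and 8.09 ± 2.20 TPM (SD, n = 4) with no gene opposite. Their part in the members' values was not tested. The summed level of these 22 ran from 157 to 186 TPM over the libraries and was led by Csf1r, whose exons overlap Hmgxb3 by 871 bases, before Alas2, which also has an exon opposite.

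**Figure D1:**
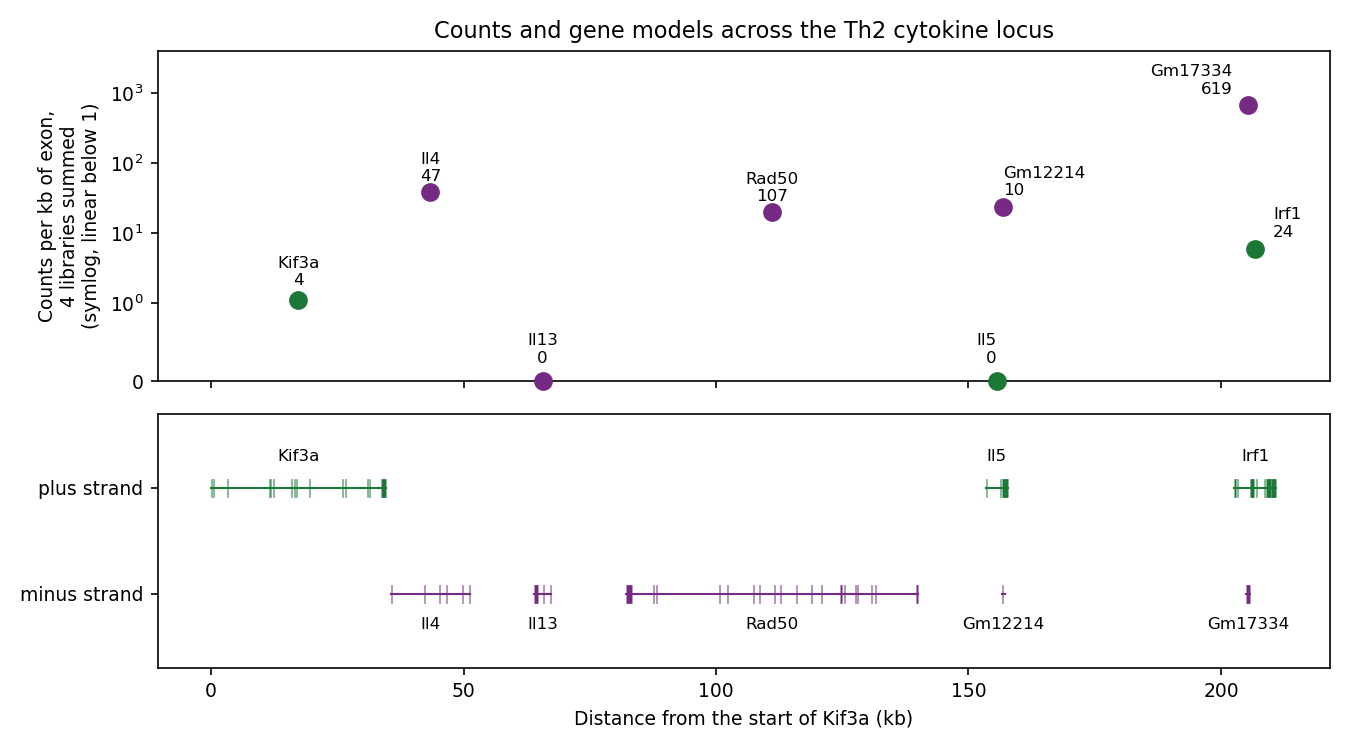
Counts per kilobase of exon summed over the 4 libraries (upper panel, symlog axis, summed counts printed beside each point) and exon models by strand (lower panel), against distance from the start of Kif3a in kb. Green is the plus strand and purple the minus strand; Gm17334, at 619 counts, lies above every member, and Il13 and Il5 lie at 0.

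Across 210996 bases from the start of Kif3a to the end of Irf1, the 7 members held 192 counts in all, 41, 47, 47 and 57 in replicates 1 to 4. The 4 members on the minus strand held 164 of them and the 3 on the plus strand 28. Counts in every library were found for 4 of 7 members, Il4, Rad50, Gm12214 and Irf1. Over all genes this share was 21.5%, and over protein-coding genes, 6 of the members among them, it was 39.0%. Among all genes with an exon opposite, as Gm12214 and Irf1 have, it was 57.4%, and among protein-coding genes of this class 65.2%. For protein-coding genes with only an intron opposite, as Rad50, it was 37.2%, and with no opposite gene, as Il4, 30.6%. With at least 3 counts asked in every library, 2 of 7 remained, Il4 and Rad50. An exon on the other strand overlapped 3 members, Il5, Gm12214 and Irf1. In bulk RNA, fewer cells that transcribe a gene and less RNA per cell cannot be told apart.

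Il4 and Il13 are shown here by the coding part of their first exon, because they are neighbours on the same strand and differed in counts. Both sequences are read 5′ to 3′ on the minus strand of mm10, from GENCODE M21 transcripts, with the start codon in capitals. That of Il4 lies at chr11:53618475-53618606 and that of Il13 at chr11:53634494-53634634.
Il4: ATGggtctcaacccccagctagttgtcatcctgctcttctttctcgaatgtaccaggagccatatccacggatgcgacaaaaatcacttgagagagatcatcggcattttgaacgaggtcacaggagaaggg
Il13: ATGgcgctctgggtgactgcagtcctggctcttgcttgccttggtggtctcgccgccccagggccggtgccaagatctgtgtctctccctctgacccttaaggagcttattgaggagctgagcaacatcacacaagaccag
No run of 50 bases of any annotated transcript of either gene occurred in an annotated transcript of another gene, on either strand. Only exact matches were searched, so copies with mismatches and copies that are not annotated were not covered.

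Il4 (ENSMUSG00000000869.12, chromosome 11, 53602982 to 53618669, minus strand), the gene of the cytokine that both marks and sustains Th2 cells, had the highest mean level of the members. It had 10, 12, 18 and 7 counts in replicates 1 to 4, over 7 exons of 1227 bases, and no gene lies opposite. In CPM, counts scaled to the library total, these were 5.92, 7.04, 8.10 and 3.72, highest in replicate 3 and lowest in replicate 4. The exact 95% Poisson intervals of these extremes, 4.80 to 12.8 and 1.50 to 7.67 CPM, overlapped, so no difference between libraries could be seen at this depth. Its level was 7.43 ± 2.30 TPM (SD, n = 4; TPM is the share of counts scaled by exon length), above 81.8% of the 12304 protein-coding genes with a count.

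Il13 (ENSMUSG00000020383.1, 53631324 to 53634702, minus strand), the gene of a cytokine that acts on epithelium and smooth muscle, lies 12654 bases from Il4 and had no count in any library. Its 4 exons span 1205 bases, nearly the exon length of Il4, and no gene lies opposite. The 3 counts that a 0 allows set its limit between 1.67 and 2.16 TPM, depending on the library. Per kilobase, the observed 47 counts of Il4 were 15.4-fold above the bound for Il13, setting the gene at 0 to 3 counts over the 4 libraries. This fold bound leaves out the counting error of the 47 counts, and with it the bound would be lower. Without replicate 3 the bound was 9.49-fold, and with the length of 1 transcript per gene it was 32-fold, since Il4 then counts as 590 bases. Among protein-coding genes with no opposite gene, 51.7% had no count in any library either.

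Rad50 (ENSMUSG00000020380.16, 53649519 to 53707319, minus strand), which bridges broken DNA ends in a complex with MRE11 and NBN, had the most counts of the members. It had 27, 28, 16 and 36 counts in replicates 1 to 4, over 25 exons of 5375 bases. In CPM these were 16.0, 16.4, 7.20 and 19.1, so replicate 3 was lowest and replicate 4 highest. The Poisson intervals of these, 4.11 to 11.7 and 13.4 to 26.5 CPM, did not overlap. The share of counts in genes with no opposite gene was also lowest in replicate 3, 5.10%, and highest in replicate 4, 8.09%. Rad50 is not among these genes, since a gene lies opposite an intron of it. Il4, which is among them, ran the other way, at 8.10 CPM in replicate 3 and 3.72 CPM in replicate 4. The part of this share in the Rad50 values was not tested. Trac, the T cell receptor gene, was likewise lowest in replicate 3, at 6.30 CPM against 15.9 to 17.8 CPM in the other libraries. Not all of the 14 T cell identity genes were lowest there in CPM, and Cd3d and Cd3e were not. The level of Rad50 was 4.01 ± 1.401 TPM (SD, n = 4), and 4.68 ± 0.480 TPM (SD, n = 3) without replicate 3. A short noncoding gene, Gm22275, lies on the other strand in an intron of Rad50 and had 0, 0, 3 and 1 counts.

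**Figure D2:**
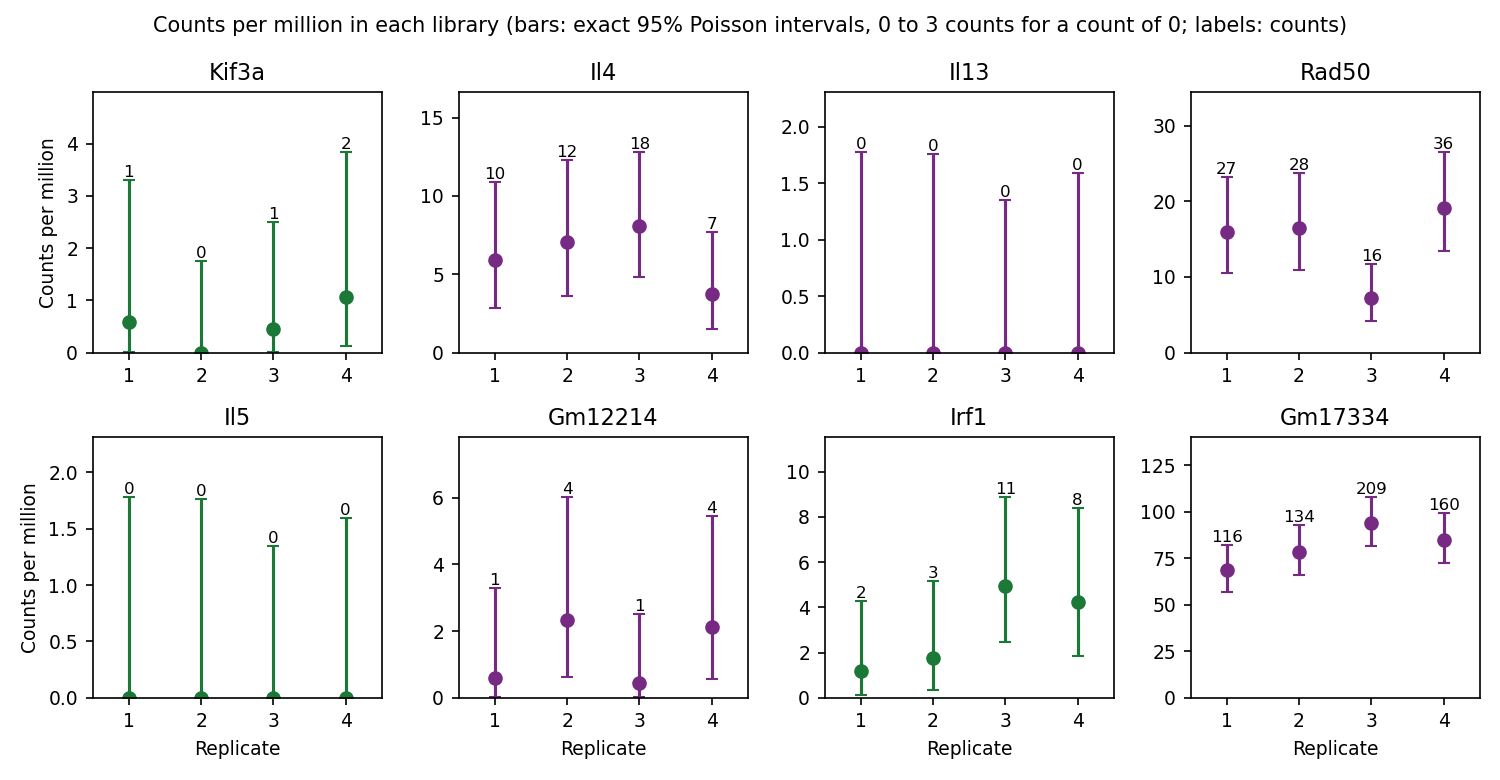
CPM of each member and of Gm17334 in replicates 1 to 4, with exact 95% Poisson intervals (0 to 3 counts where the count is 0) and the counts printed above; each panel has its own axis. Il4 is highest in replicate 3 at 18 counts, where Rad50 is lowest at 16, and Il13 and Il5 are at 0 throughout.

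The proportion of Il4 to Rad50, which Il13 separates, differed most between replicates 3 and 4. The ratio of Il4 to Rad50 counts was 0.370, 0.429, 1.13 and 0.194 in replicates 1 to 4, so Il4 exceeded Rad50 in replicate 3 alone. Its exact 95% interval in replicate 3, 0.542 to 2.36, lay above that in replicate 4, 0.0730 to 0.443, while those of replicates 1 and 2 overlapped both. This comparison was chosen after the values were seen.

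The variation test across all genes could be applied to 1 of 7 members, Rad50, because the filter on low counts removed the others. Rad50 did not pass this test for variation beyond what its abundance predicts. Its unadjusted p was 0.242 and its adjusted p 0.988, in an upper-tail F test on edgeR's quasi-likelihood fit. DESeq2's rule for dispersion outliers, applied to the same genes, did not mark Rad50 either. Over all genes tested, 22 of 4918 passed at 0.05, which is 0.447%, and 281 had an unadjusted p under 0.05. The plot of variation against abundance places Rad50 among the genes not called. Of 3500 other protein-coding nuclear genes tested, those whose profile over the 4 libraries was most like that of Rad50 were Adsl, Hspa9 and Slc25a5. Their root mean square differences in centred log2 CPM were 0.036, 0.040 and 0.042. Adsl, an enzyme gene of purine synthesis, had 26, 28, 16 and 34 counts. In all, 388 genes lay within 0.25 of Rad50, so the profile over 4 libraries is shared by many genes.

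**Figure D3:**
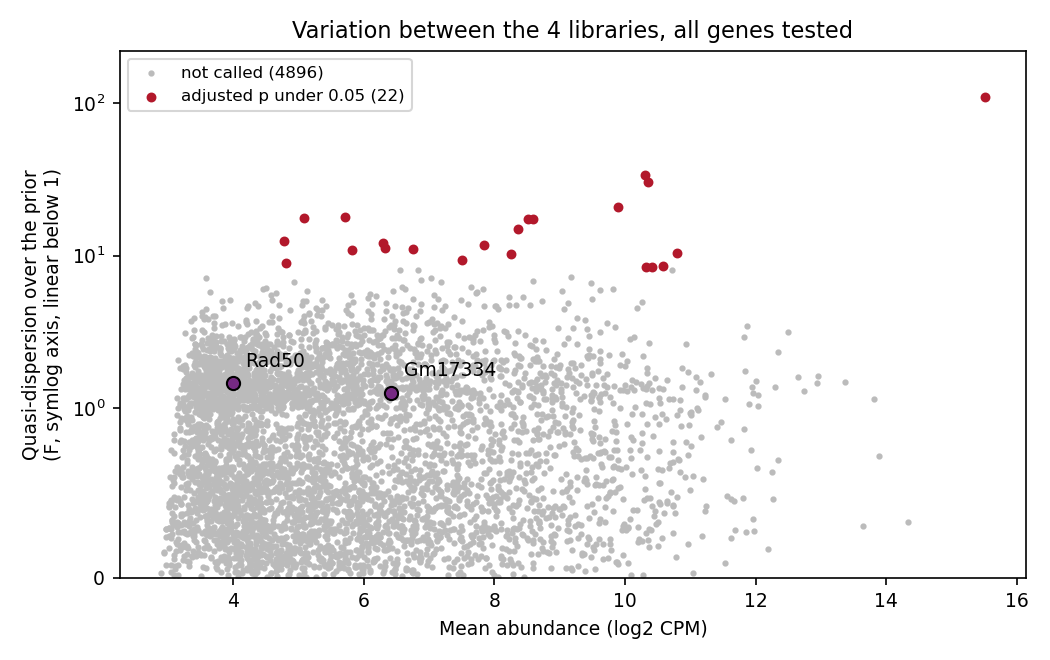
Quasi-dispersion of each tested gene over the trended prior (F, symlog axis) against mean abundance in log2 CPM, over the 4 libraries; red points are the 22 genes with an adjusted p under 0.05. Rad50 and Gm17334, outlined, lie among the grey points, with F of 1.45 and 1.26.

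On the distal side of Rad50 the counts of each plus-strand gene stand beside those of a minus-strand gene that overlaps it. The stretches where coding exons of Il5 and Irf1 lie opposite such a gene are shown because the genes on either strand differed in counts. Both are plus-strand mm10 sequences, 5′ to 3′, from GENCODE M21 transcripts, with bases opposite an exon of the minus-strand gene in capitals. For Il5 the 99 bases are the coding part of the last exon with the stop codon, chr11:53723916-53724014, of which 62 face Gm12214. For Irf1 the capitals are a whole coding exon of 100 bases, chr11:53772839-53772938, inside Gm17334, with 30 coding bases of the exons before and after in lower case.
Il5: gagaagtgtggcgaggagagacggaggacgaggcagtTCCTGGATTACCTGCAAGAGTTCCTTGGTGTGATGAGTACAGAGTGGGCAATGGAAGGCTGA
Irf1: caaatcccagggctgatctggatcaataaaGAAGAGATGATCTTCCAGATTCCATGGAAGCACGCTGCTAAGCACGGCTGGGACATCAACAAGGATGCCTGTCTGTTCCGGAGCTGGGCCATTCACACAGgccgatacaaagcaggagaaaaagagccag
A read pair wholly within the capitals matches both genes in sequence, and only its strand assigns it to 1 of them. A pair that reaches past them, as into a neighbouring exon of Irf1, can also differ in sequence. Of 4207 runs of 50 bases of Irf1, 52 also occur in Gm17334 on the other strand. For Il5 and Gm12214 it was 321 of 1488.

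Il5 (ENSMUSG00000036117.2, 53720794 to 53725106, plus strand), the gene of the cytokine that eosinophils need to mature, had no count in any library over 4 exons of 1537 bases. Its limit lay between 1.31 and 1.69 TPM. Gm12214 (ENSMUSG00000086595.1, 53723953 to 53724618, minus strand) is annotated as an antisense RNA. Its 2 exons hold 417 bases, all of them opposite the last exon of Il5, so 27.1% of the exon bases of Il5 face Gm12214. Gm12214 had 1, 4, 1 and 4 counts in replicates 1 to 4, so counts at this end of Il5 were found on the minus strand alone. Its level was 4.87 ± 3.53 TPM (SD, n = 4). Per kilobase, the observed 10 counts of Gm12214 were 12.3-fold above the bound for Il5, setting the gene at 0 to 3 counts over the 4 libraries. This fold bound leaves out the counting error of the 10 counts, and with it the bound would be lower. Without replicate 2, or without replicate 4, the bound was 7.37-fold. In counts, without length scaling, it was 3.33-fold.

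Gm12214 lay below the median of its class. Of 63 antisense genes whose exon bases all lie opposite an exon, 46 had a count in every library, 73.0%. Their median level was 112 TPM, and 30.2% of them lay below Gm12214.

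Irf1 (ENSMUSG00000018899.16, 53770014 to 53778374, plus strand), which switches on antigen presentation and antiviral genes, had 2, 3, 11 and 8 counts in replicates 1 to 4. In CPM these were 1.18, 1.76, 4.95 and 4.25, higher in replicates 3 and 4 than in 1 and 2, with overlapping intervals. Its level was 1.13 ± 0.690 TPM (SD, n = 4). Gm17334 (ENSMUSG00000091191.1, 53772281 to 53773187, minus strand), annotated as a protein-coding gene of a single exon, lies wholly inside Irf1. Of its 907 bases 135 face exons of Irf1 and 772 face introns.

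Gm17334 had 116, 134, 209 and 160 counts, more in every library than the 7 members together. In CPM it was lowest in replicate 1, 68.7, and highest in replicate 3, 94.0, with Poisson intervals of 56.8 to 82.4 and 81.7 to 108. The adjusted p for variation between libraries was 0.991 in the upper-tail F test on edgeR's quasi-likelihood fit. Its level was 132 ± 18.6 TPM (SD, n = 4), above 97.3% of protein-coding genes with a count. Per kilobase it exceeded Irf1 by 113 times (exact 95% interval 75.3 to 178) over the summed 619 and 24 counts. With the length of 1 transcript per gene, 2069 bases for Irf1, the ratio was 58.8, and in counts alone it was 25.8. This pair was added after the values were seen.

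**Figure D4:**
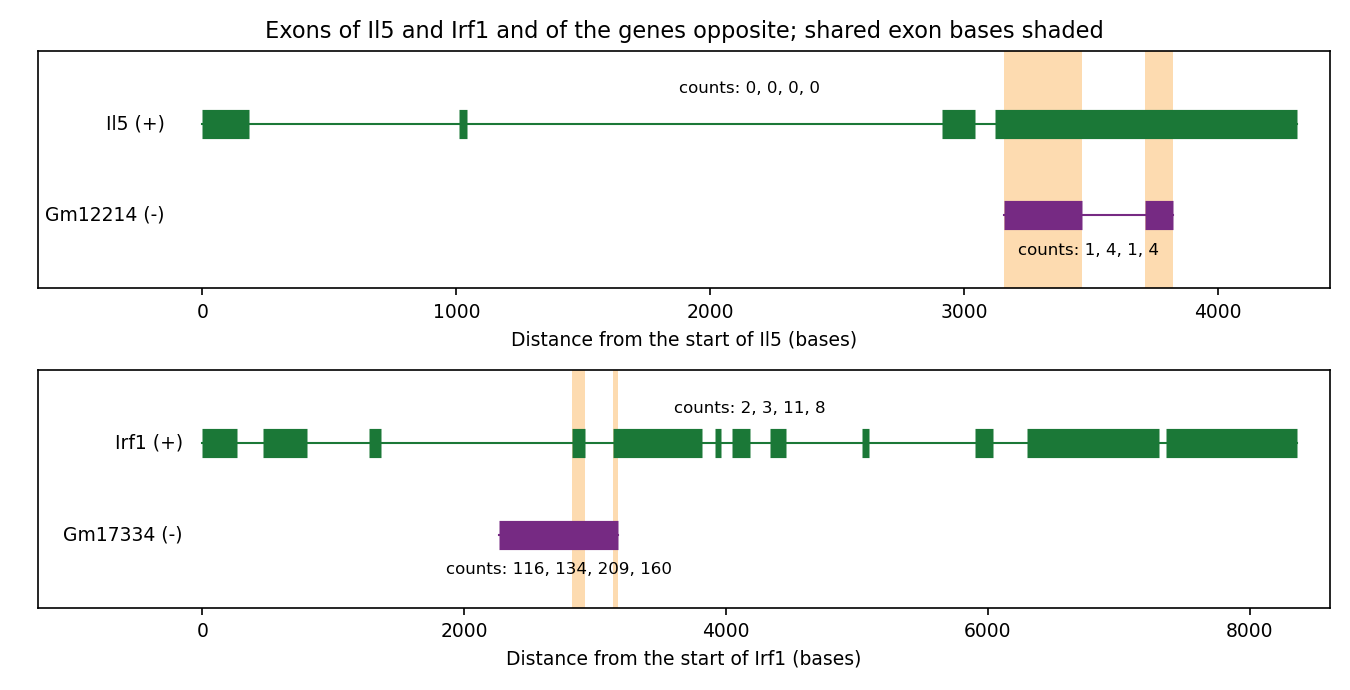
Exons (boxes) of Il5 with Gm12214 and of Irf1 with Gm17334, against distance in bases from the start of the plus-strand gene; shaded bands are exon bases shared by both strands, and the counts in replicates 1 to 4 are printed by each gene. Counts are 0 for Il5 against 1, 4, 1 and 4 for Gm12214, and 2, 3, 11 and 8 for Irf1 against 116, 134, 209 and 160 for Gm17334.

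Kif3a (ENSMUSG00000018395.19, 53567379 to 53601967, plus strand) had 1, 0, 1 and 2 counts in replicates 1 to 4 over 20 exons of 3586 bases. It ends 1014 bases before the annotated end of Il4, and the 2 genes face each other. Of its 3784 runs of 50 bases, 40 also occur in transcripts of other genes, 1.06%. No gene lies opposite, and its level was 0.215 ± 0.179 TPM (SD, n = 4).

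Ordered by mean TPM, the members ran Il4, Gm12214, Rad50, Irf1 and Kif3a. Il13 and Il5, at 0, were left out of this order. Their limits in a single library, 1.67 to 2.16 and 1.31 to 1.69 TPM, lie above the means of both Irf1 and Kif3a. Taken over the 4 libraries together, 3 counts set limits of 2.49 and 1.95 counts per kilobase, below Irf1 at 6.04 and above Kif3a at 1.12. In summed counts both therefore lay below Irf1. Within libraries, the difference in log2(TPM + 1) between Il4 and Gm12214 was 0.71 ± 1.23 (SD, n = 4), higher in 3 of 4 libraries (exact two-sided sign-flip p = 0.375). That between Gm12214 and Rad50 was 0.05 ± 0.69, with Gm12214 higher in 2 of 4 libraries (exact p = 1). These first 3 members were therefore not set apart beyond their spread, and in log2(CPM + 1), without length scaling, Gm12214 lay below Rad50 by a difference of -2.75. Rad50 exceeded Irf1 by 1.24 ± 0.83 and Irf1 exceeded Kif3a by 0.76 ± 0.43, each in 4 of 4 libraries, and both exact p-values were the smallest that 16 sign patterns allow, 0.313 after adjustment. Kif3a could not be ordered against Il13 and Il5, since genes at 0 can only lie lower and their limits exceed its level. The exact p-values were adjusted over 5 comparisons, that of Kif3a with Il13 included, and those of the pairs named here ran from 0.313 to 1. The pseudocount of 1 understates differences of such low genes.

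Related genes were taken from lists written for each role. As background to the counts of each list, 39.0% of all protein-coding genes had a count in every library and 43.5% had none in any. Of the 5 cytokine genes of the wider cluster on chromosome 11, Il4 was the only 1 with a count in every library. Csf2, a growth factor gene of myeloid cells, had 0, 1, 0 and 3 counts and Il3 had 0, 1, 0 and 1. Of 7 other cytokine genes made by Th2 cells, 6 had no count, Il9, Il10 and Il6 among them. Il21 had 35, 19, 43 and 40 and overlaps Gm12534 on the other strand by 469 bases. The median mean level was 0.655 TPM in the first list and 0 in the second, against 1.42 TPM over all 17431 genes with a count.

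Of 25 factors known to act on the locus, 23 had a count in every library and Maf and Bhlhe41 had none. The median over all 25 was 6.40 TPM, above the 1.42 TPM of all genes with a count and below the 19.0 TPM of the genes that passed the filter on low counts, so its side depends on the comparator. The highest were the AP-1 subunit genes Junb, at 44.5 ± 3.51 TPM, and Jund, at 41.5 ± 17.8 TPM (SD, n = 4), both with an exon opposite. Gata3, the regulator that opens the locus, was at 3.83 ± 0.515 TPM, and Stat6, which carries the interleukin 4 signal, at 8.52 ± 1.43 TPM (SD, n = 4). Both of these also have an exon opposite, of 155 and 40 bases. Of 10 receptor and kinase genes of interleukins 4, 13 and 5, 6 had a count in every library. Jak2 at 4.56 ± 2.13 and Jak1 at 4.36 ± 1.41 TPM led them, and Il5ra, Il13ra2 and Csf2rb had no count.

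**Figure D5:**
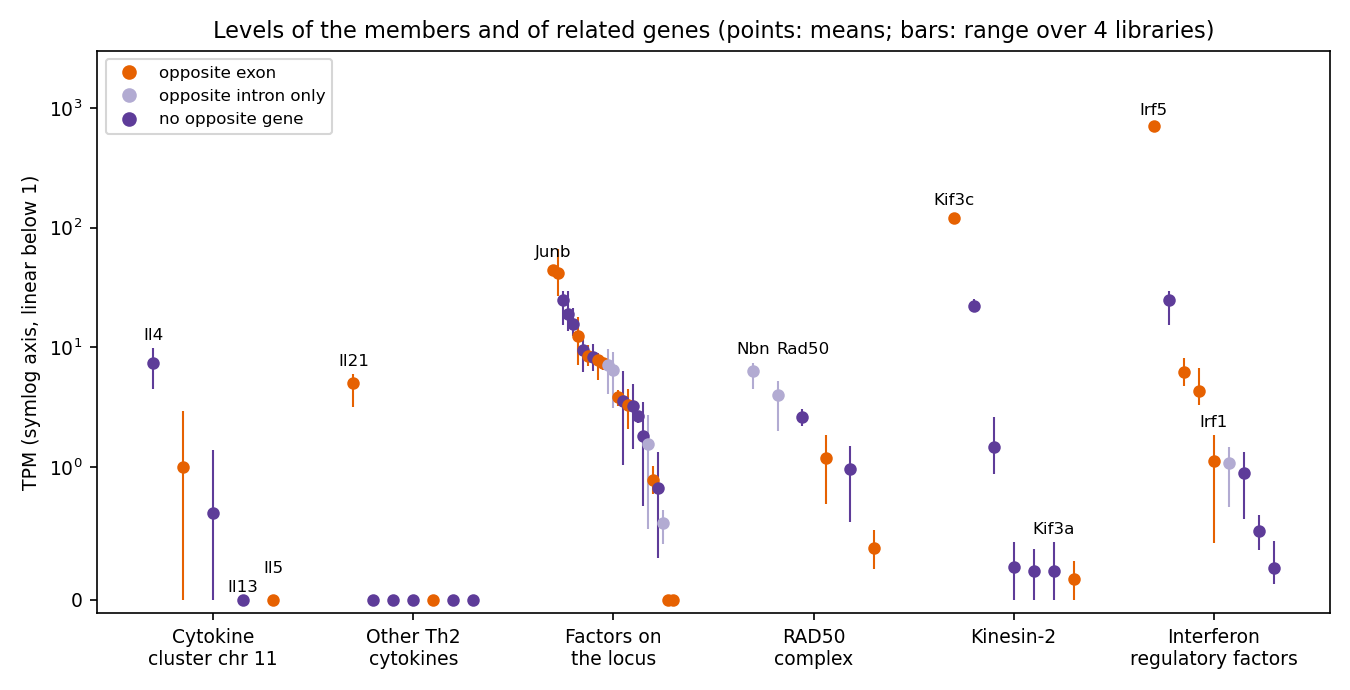
TPM (symlog axis, linear below 1) of the members and of related genes in 6 lists; points are means and bars the range over the 4 libraries, and colour gives what lies on the other strand. Il4 stands at 7.43 TPM above the other 4 genes of its cluster, and Irf5 and Kif3c, at 702 and 121 TPM, have exons opposite.

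Set among the proteins they work with, Rad50 was second in its list and Irf1 and Kif3a stood low. All 6 genes of the RAD50 complex and its partners had a count in every library. Nbn was highest at 6.29 ± 1.32 TPM, and Mre11a, which overlaps Ankrd49, was at 1.20 ± 0.497 TPM (SD, n = 4). In the kinesin-2 list 3 of 7 genes had a count in every library. Kif3b, the usual partner subunit of Kif3a, was at 1.47 ± 0.782 TPM, while Kif3c reached 121 ± 9.05 TPM (SD, n = 4) and overlaps 1110002L01Rik by 2617 bases. Ift20, which has no gene opposite, was at 22.1 ± 2.09 TPM.

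All 9 interferon regulatory factor genes had a count in every library, and Irf1 stood between Irf3 above and Irf2 below by mean level. Irf4, which T cells need for Th2 cytokine production and which has no gene opposite, was at 24.95 ± 6.67 TPM, and Irf5, with 411 bases opposite Tnpo3, at 702 ± 28.7 TPM (SD, n = 4). Of 10 genes that IRF1 is known to induce, 6 had a count in every library and Cxcl10 had none. B2m, the light chain of class I molecules, was at 54.8 ± 24.9 TPM, and the immunoproteasome gene Psmb9, opposite Tap1 by 212 bases, at 32.5 ± 1.34 TPM (SD, n = 4). Over the 8 lists together, 33 of 78 genes could be tested for variation between libraries. Of these 33, 4 had an unadjusted p under 0.05 in edgeR, 0 passed after adjustment, and DESeq2's rule marked 0. Over all 4918 genes tested these numbers were 281, 22 (0.447%) and 20. At such a share, 0 of 33 does not set the listed genes apart.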

How the data were processed

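The 4 libraries are labelled total RNA, while the linked library protocol is named for poly(A)+ RNA. The authors deposited read-pair counts per gene from featureCounts 1.4.6-p4, with both ends mapped, exons summed by gene and strand option 1, on GENCODE M13, per the file headers. The build is mm10, per the labels. Exon lengths and positions are those the authors deposited with the counts. The aligner's settings are not given in the sources used here.

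Symbols came from GENCODE M21 and matched 99.6% of identifiers. CPM and TPM were computed from counts and deposited length. Variation between libraries was tested on a fit from edgeR 4.0.16 (TMM, filterByExpr with a minimum count of 10, robust quasi-likelihood, intercept only). The upper tail of each quasi-dispersion over its trend was taken from an F distribution, outside edgeR's own test functions. This F test used the largest prior degrees of freedom of the fit for every gene and was Benjamini-Hochberg adjusted at 0.05. In simulated data of 5163 genes it recovered 26.9% of genes raised 2-fold in 1 library, 94.3% at 4-fold and 100% at 8-fold. The raised genes were drawn from all that pass the filter, so recovery at the counts of Rad50 was not measured. DESeq2 1.42.0 served as an alternative. Neighbours in the order were compared by an exact sign-flip test over 16 sign patterns, pseudocount 1. Intervals are exact at 95%.

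Members and lists were chosen with earlier results of these data known. Named were all members, genes overlapping them, and from each list the 2 highest genes that had a count, or 1 where only 1 had. The 5 highest other genes within 250 kb and the 3 genes most like Rad50 were also named. Gata3, Stat6, Kif3b, Mre11a, Il3, Irf2, Irf3, Cd8b1, Cd79a, Cd3d, Cd3e and the genes at 0 that fall outside these were chosen after their values were seen. P-values measure only the spread between these samples.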

Additional observations from a re-analysis of the deposited data

Results flagged for a closer look

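Of 31 named genes, 3 had 1 library farther from the others than the 95% critical value of Dixon's test, which chance gives in about 1 in 20 groups. Trac was at 6.30 CPM in replicate 3, against 15.9 to 17.8 CPM in the other libraries. Csf1r, a macrophage gene with an exon opposite Hmgxb3, was at 438 CPM in replicate 3, against 537 to 546 CPM in the others. The third, Gm12218, a pseudogene beyond Irf1, was at 0.592 CPM in replicate 1 from a single count and at 0 in the others, a pattern that passes Dixon's value by construction and so shows nothing.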

How the results depend on the processing

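Of the values under alternatives, 79 kept their direction and their side of the threshold or moved by less than the spread. A further 6 moved farther, 3 changed direction, 1 was stronger and 2 were weaker. Many of the 79 are variants of the same value, so they are not independent. With at least 3 counts asked in every library, 2 members remained instead of 4, and leaving out 1 library gave 4 to 5, Kif3a joining without replicate 2. The difference between Gm12214 and Rad50, 0.05 on the log2 scale, was -2.75 in log2(CPM + 1), and leaving out 1 library gave -0.18 to 0.33, negative without replicate 2, -0.18, and without replicate 4, -0.08. The bound of Il4 over Il13 was 9.49 to 13.1 when 1 library was left out and 32 with the length of 1 transcript per gene, chosen after the data were seen. The bound of Gm12214 over Il5 was 3.33 without length scaling, and 7.37 without replicate 2 or without replicate 4. The ratio of Gm17334 to Irf1 was 58.8 with transcript length and 25.8 in counts. Genes called variable numbered 22, against 56 without the filter, 2 with library totals only, 20 in DESeq2 and 11 to 21 with 1 library left out, 11 of them without replicate 4. Without the filter, or without replicate 4 for Il4, the adjusted p of Il4, Irf1, Gm12214 and Kif3a in edgeR ran from 0.898 to 0.988. The cause of these shifts was not tested. No paired analysis was possible because the labels give 1 group. Depth limits every member: a count of 0 allows up to 1.35 CPM in the deepest library and 1.78 CPM in the shallowest.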

Other observations

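Within 250 kb on either side of the locus lay 30 further genes, of which 18 had no count in any library and 5 had a count in every library. Gm17334 held 62.7% of the 987 counts of this window. Among the others, Leap2, a liver-expressed antimicrobial peptide gene, had 1, 6, 8 and 1 counts in replicates 1 to 4. Zcchc10 had 5, 8, 7 and 12 counts, a level of 4.54 ± 1.68 TPM (SD, n = 4). Uqcrq, a subunit of respiratory complex III, had 11, 3, 5 and 11 counts. Aff4, a scaffold of transcription elongation complexes, had 13, 20, 13 and 35 counts over 13450 exon bases, a level of 1.20 ± 0.616 TPM (SD, n = 4). None of these 4 genes has a gene on the other strand.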
